A study of Drosophila melanogaster with 10 samples.

Results

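The germline-type ribosomal protein paralogues of Drosophila melanogaster are second gene copies of proteins that every cell's ribosomes carry. The 7 genes described here, of 14210 listed in the tables, are RpS5b, RpS10a, RpS19b and RpS28a of the small subunit and RpL22-like, RpL37b and RpL10Aa of the large subunit. Each was read by its gene symbol beside its main copy, the paralogue that most tissues use: RpS5a, RpS10b, RpS19a, RpS28b, RpL22, RpL37a and RpL10Ab. The 7 copies were chosen by their measured levels in these same libraries, so their levels and differences are given as descriptions and carry no test. Levels are in FPKM, fragments scaled to transcript length and to library size, a unit that allows levels to be compared between genes.

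Ribosomes hold 1 protein of each family at a given position, and a cell with transcripts of both paralogues can build ribosomes with either. In flies the main copies are transcribed in nearly all dividing and growing cells, whereas the second copies are known mainly from ovary and testis: RpS5b and RpL10Aa from the ovary, RpS19b from early germ cells, and RpL22-like from the male germline. Neuroblasts are stem cells of the fly brain that grow and divide fast and are known for high ribosome production.

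The polyA RNA of neuroblasts sorted from central brains was sequenced in 3 groups of 2 biological replicates. In the med27 RNAi pupae, inscuteable-Gal4, a driver active in neuroblasts, expressed UAS-CD8::GFP and an RNA interference construct of the VDRC collection against med27, which encodes a subunit of Mediator, the complex that links transcription factors to RNA polymerase II. The wild-type (WT) pupae and WT larvae carried the same driver and the same membrane-bound GFP in a background with the empty landing site VIE-260B, so "wild type" here is a driver control. All animals came from a 24 h egg lay and were kept at 29 °C, for 6 days in the pupal groups, taken 0 to 2 h after pupa formation, and for 5 days in the late larvae of the last instar. The sorted cells were the large ones with high GFP. The labels do not say how many brains or animals make up a replicate. The p-values measure the spread between replicate samples within groups, pooled over the 3 groups and moderated over genes.

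The targeted gene, MED27, stood at 5.33 and 3.99 FPKM in the med27 RNAi replicates, against 31.5 and 27.4 FPKM in WT pupae (log2 change -2.43, SE 0.15, limma adjusted p = 0.000522), and at 31.7 and 38.3 FPKM in WT larvae. The upper confidence bounds of the deposited values implied 26841726 to 30689986 fragments per RNAi run, 28882613 to 29617649 per WT pupal run and 18305735 to 18563031 per larval library. All 10 neuroblast markers fixed for the check were at 10 FPKM or more in every replicate, summing to 1904 and 1887 FPKM in RNAi pupae, 2176 and 2243 FPKM in WT pupae and 1716 and 1589 FPKM in WT larvae. Between RNAi and WT pupae 4 of the 10 were lower and 0 higher at a limma adjusted p under 0.05, beside 8.64% and 19.6% of all genes. The 4 were ase (-0.82), pros (-0.56), CycE (-0.54) and klu (-0.35). The 7 neuron markers summed to 45.3 and 50.6 FPKM in RNAi pupae, 47.6 and 78.4 FPKM in WT pupae and 17.6 and 15.2 FPKM in WT larvae, the 6 haemocyte markers to at most 1.20 FPKM and the 6 fat body markers to at most 2.20 FPKM. Of the 6 glial markers, Eaat1, a glutamate transporter, stood at 18.6 and 18.7 FPKM in RNAi pupae, against 61.1 and 71.5 FPKM in WT pupae. The highest of them, nrv2, a subunit of the sodium pump, stood at 131 and 129 FPKM in RNAi pupae, against 121 and 114 FPKM in WT pupae, a difference of 0.15 (limma adjusted p = 0.298), while repo, the defining glial factor, was below 0.84 FPKM throughout. The part of these other markers in the levels below was not tested.

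The 7 copies lie apart from their main copies in the genome. In the coordinates of the deposited tables, for which no build is named, RpS5b spans 10726154 to 10727310 on chromosome arm 3R, RpL10Aa 10863088 to 10863872, RpS19b 19758451 to 19759252, RpS10a 23478482 to 23479085 and RpS28a 25848126 to 25848320, all on 3R. RpL22-like and RpL37b lie on 2R. None of the 7 is on the X chromosome, whereas 6 of the 7 main copies are on X, which holds 15.6% of the listed genes, and the other one, RpL10Ab, is on 3L.

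The copies are compact genes. In the Ensembl annotation of BDGP6, RpS10a, RpS28a, RpL37b and RpL10Aa have a single exon, RpL22-like has 2, RpS5b has 2 or 3 by transcript and RpS19b has 3. Their main copies have 2 to 5 exons by transcript, except RpS10b, which was matched by symbol and has 1 to 3. Coding lengths within a pair are close: 465 nt in RpS19b and 468 nt in RpS19a, 489 nt in RpS10a and 480 nt in RpS10b, and 192 nt in RpS28a and 195 nt in RpS28b. Exon numbers thus overlap within some pairs: RpS19b has 3 and RpS19a 2 or 3 by transcript, and RpS10b, like RpS10a, has a transcript of 1 exon. Fragments that match both members of a pair equally were assigned by the authors' counting, and these values are uncertain to that extent.

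Expression of the family in neuroblasts was carried almost wholly by the main copies. Over the 6 replicates the main copies averaged between 1197 FPKM, for RpL22, and 2549 FPKM, for RpL37a. The copies averaged 17.7 FPKM for RpS19b, 3.88 FPKM for RpS10a, 3.68 FPKM for RpS5b, 0.733 FPKM for RpS28a, 0.290 FPKM for RpL22-like, 0.184 FPKM for RpL37b and 0 for RpL10Aa. The order of RpS10a and RpS5b turned between groups: RpS5b was higher in every WT replicate and RpS10a in every RNAi replicate. RpS28a, RpL22-like and RpL37b overlapped in their ranges over replicates, so the order within that set is not fixed by these data. The 80 main cytosolic ribosomal protein genes had a median of 2394 FPKM, and the lowest was RpS6, which the tables list at only 5.48 FPKM, followed by RpS14b at 791 FPKM. By its mean over the 6 replicates, RpS19b was below all of them but RpS6 and stood above 71.1% of all listed genes. That mean was raised by RNAi pupae, at 38.9 FPKM, against 8.38 FPKM in WT pupae and 5.87 FPKM in WT larvae.

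**Figure D1:**
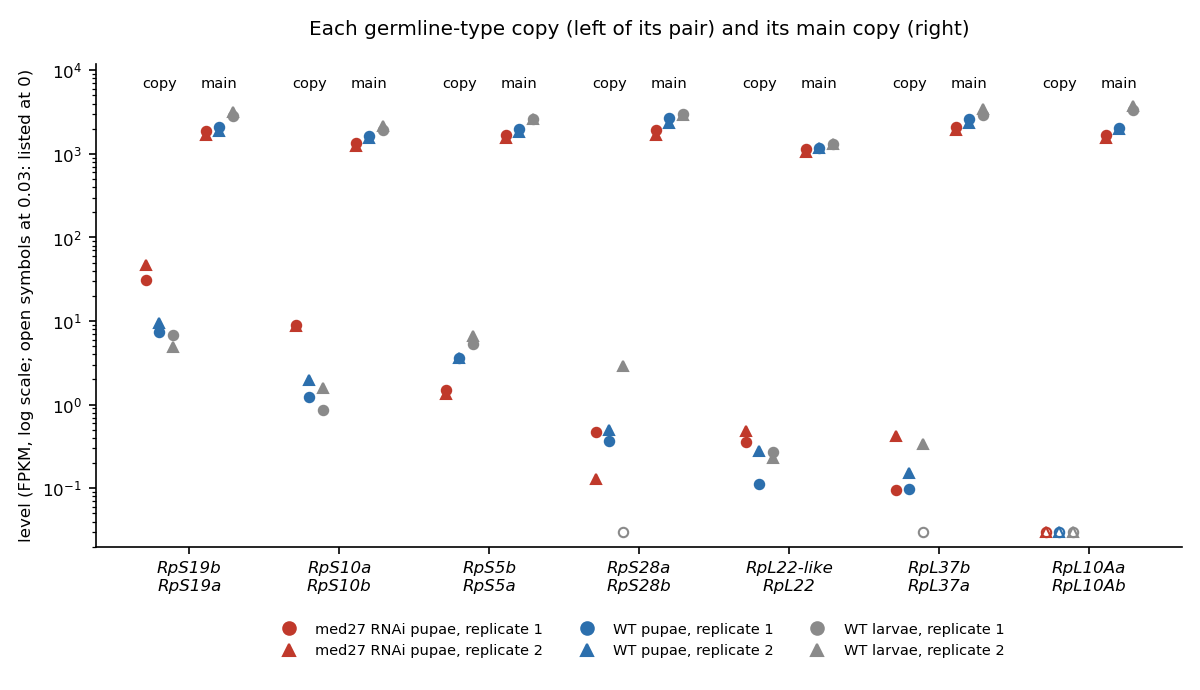
Levels in FPKM on a log axis of each germline-type copy (left of a pair) and its main copy (right) in med27 RNAi pupae (red), WT pupae (blue) and WT larvae (grey); each symbol is 1 biological replicate (circle 1, triangle 2), and open symbols mark values listed at 0. The main copies sit between 1043 and 3724 FPKM and every copy at or below 46.8 FPKM.

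RpS19b, the copy of the small subunit protein eS19 known from germ cells, had the highest mean of the 7 over all replicates and was highest in med27 RNAi pupae. In WT larvae its mean was 5.87 FPKM, beside 6.01 FPKM for RpS5b, and the replicates of those genes overlapped. Its level was 30.9 and 46.8 FPKM in the RNAi replicates, 7.37 and 9.38 FPKM in WT pupae and 6.87 and 4.86 FPKM in WT larvae. Both RNAi replicates lay above all 4 WT replicates, and the lowest RNAi value was over the highest WT value by more than the gap between any pair of WT replicates. The means were 38.9 ± 11.2 FPKM in RNAi pupae, 8.38 ± 1.42 FPKM in WT pupae and 5.87 ± 1.42 FPKM in WT larvae (SD, n = 2 each), a ratio of 4.64 for RNAi over WT pupae and of 6.63 for RNAi pupae over WT larvae. The technical runs repeated these levels: the 4 RNAi runs gave 30.1, 31.7, 50.6 and 43.0 FPKM and the 4 WT pupal runs 7.44, 7.30, 9.14 and 9.63 FPKM. About 2555 fragments in all lay behind the RNAi value, 561 behind that of WT pupae and 126 behind that of WT larvae.

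RpS10a, the intronless copy of the small subunit protein eS10, showed the same order of groups at a lower level. It stood at 9.003 and 8.68 FPKM in med27 RNAi pupae, 1.22 and 1.96 FPKM in WT pupae and 0.864 and 1.56 FPKM in WT larvae. The RNAi replicates were close to each other and far above the 4 WT replicates, whose 2 stages overlapped. The ratio of means was 5.56 for RNAi over WT pupae and 7.29 for RNAi pupae over WT larvae. The WT values rest on few fragments, 108 in WT pupae and 27 in WT larvae, against 600 in RNAi pupae; in larval replicate 1, 10 fragments have an exact Poisson 95% interval of 4.80 to 18.4, which covers counting error only.

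RpS5b, the ovarian copy of the small subunit protein uS7, ran the other way. Its level was 1.503 and 1.33 FPKM in med27 RNAi pupae, 3.58 and 3.63 FPKM in WT pupae and 5.30 and 6.71 FPKM in WT larvae. The 3 groups did not overlap, and RNAi pupae were the lowest, WT larvae the highest. The mean was 2.55-fold lower in RNAi pupae than in WT pupae and 1.67-fold lower in WT pupae than in WT larvae. These levels came from 141, 363 and 204 implied fragments in RNAi pupae, WT pupae and WT larvae.

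**Figure D2:**
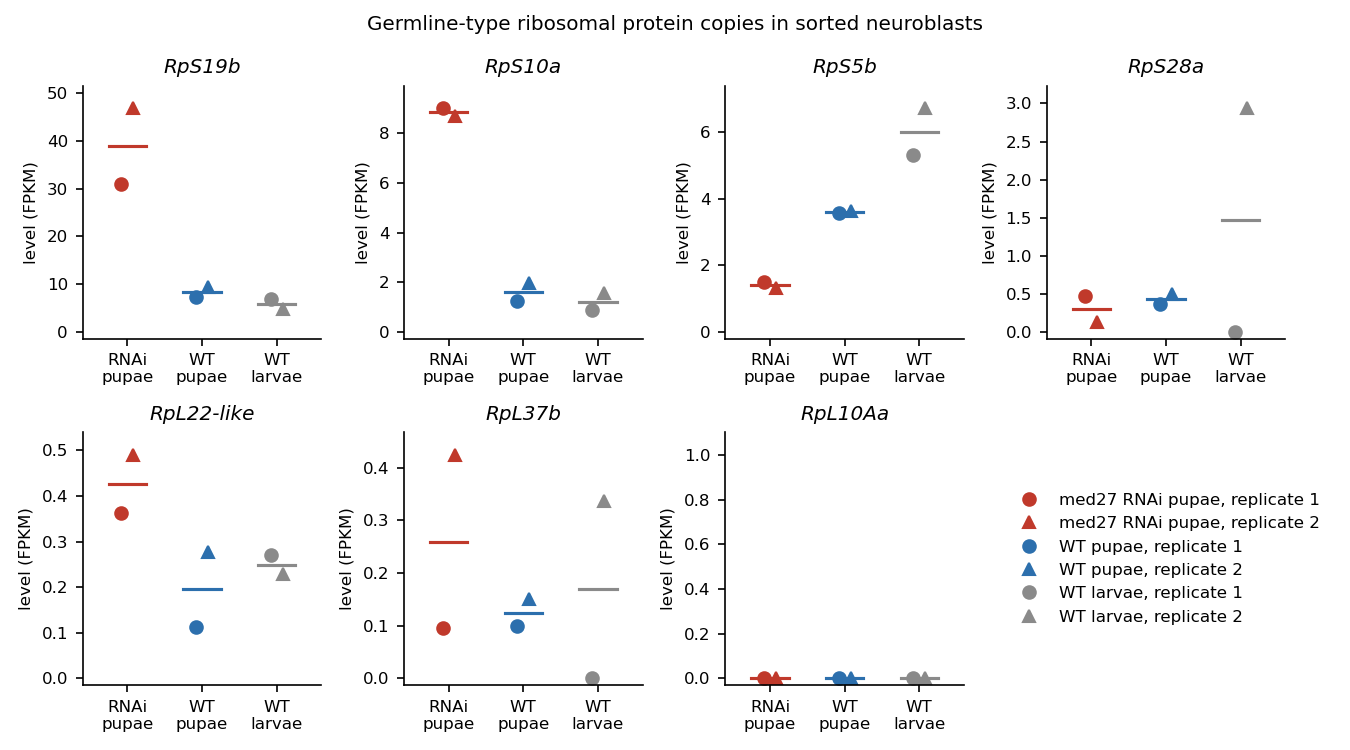
Level in FPKM (linear axes, a scale for each gene) of the 7 germline-type copies in med27 RNAi pupae, WT pupae and WT larvae; symbols are the 2 biological replicates of a group and lines their means. RpS19b and RpS10a are highest in both RNAi replicates and RpS5b is lowest there, while the other 4 genes are near or at 0. Of those 4, RpL22-like has both RNAi replicates above the WT replicates in FPKM but not in fragments, of which it has at most 23.6. The groups of the rest overlap or are all at 0.

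The remaining 4 copies were at the edge of detection in neuroblasts. RpL22-like, the testis-known copy of the large subunit protein eL22, stood at 0.362 and 0.490 FPKM in med27 RNAi pupae, 0.113 and 0.277 FPKM in WT pupae and 0.270 and 0.228 FPKM in WT larvae. Both RNAi replicates lay above all 4 WT replicates in FPKM, but on about 12.0 and 23.6 fragments, against 6.64 and 20.0 fragments in WT pupae. In fragments the groups overlapped, since RNAi replicate 1 had fewer than WT pupal replicate 2, so the separation was not seen there. The exact Poisson 95% interval of RNAi replicate 1, 6.23 to 21.0 fragments, holds the fragments of both WT pupal replicates and covers counting error only. RpS28a stood at 0.467 and 0.130 FPKM in RNAi pupae, 0.365 and 0.499 FPKM in WT pupae and 0 and 2.94 FPKM in WT larvae. The high larval value of RpS28a is 7 fragments on a gene of 195 nt and is not matched by the other larval replicate, so no order of groups was detectable at this depth.

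RpL37b, a second intronless copy of a zinc-binding protein of the large subunit, stood at 0.0946 and 0.424 FPKM in RNAi pupae, 0.0984 and 0.150 FPKM in WT pupae and 0 and 0.337 FPKM in WT larvae, from 0 to 8 fragments in a replicate. RpL10Aa was listed at 0 in all 10 runs with no failed estimate. A floor of 3 fragments per run would correspond to 0.131 to 0.220 FPKM for its length, so a lower level would not have been detectable. All members were given the status OK in every run.

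On the scale of log2(FPKM + 1), used for the fit over the 6992 genes with a mean of at least 1 FPKM, 3 of the 7 copies entered the fit: RpS19b, RpS10a and RpS5b, each with a mean above 1 FPKM in every group. RpS19b differed by 2.07 (SE 0.23) and RpS10a by 1.94 (SE 0.22) between RNAi and WT pupae, and RpS5b by -0.93 (SE 0.16). Of the genes fitted, 19 had a larger positive difference than RpS19b and 25 than RpS10a, while 146 had a more negative one than RpS5b. Against WT larvae, RNAi pupae differed by 2.52 for RpS19b, 2.17 for RpS10a and -1.53 for RpS5b. Those comparisons share the RNAi libraries and are not separate evidence.

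Between the WT stages RpS5b was lower in pupae and its groups did not overlap, while those of RpS10a did. On the same scale, WT pupae minus WT larvae gave 0.46 (SE 0.23) for RpS19b, 0.23 (SE 0.22) for RpS10a, which was -0.11 after quantile normalization, and -0.60 (SE 0.16) for RpS5b. With a trend over transcript length removed, these were 0.92, 0.73 and -0.28.

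As a share of its pair, each copy stayed a minor species. RpS19b made up 1.64% and 2.68% of the summed FPKM of RpS19b and RpS19a in med27 RNAi pupae, 0.355% and 0.502% in WT pupae and 0.241% and 0.153% in WT larvae. This share was higher in both RNAi replicates than in any WT replicate, and in WT pupae than in WT larvae. RpS10a made up 0.655% and 0.695% of its pair in RNAi pupae, 0.0740% and 0.128% in WT pupae and 0.0443% and 0.0731% in WT larvae. RpS5b made up 0.0894% and 0.0853% of its pair in RNAi pupae, 0.180% and 0.198% in WT pupae and 0.202% and 0.254% in WT larvae. The RNAi replicates thus had the lowest share of RpS5b and the highest shares of RpS19b and RpS10a.

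Summed over the 7 pairs, the copies reached 42.4 and 57.9 FPKM in RNAi pupae, 12.7 and 15.9 FPKM in WT pupae and 13.3 and 16.6 FPKM in WT larvae. They were 0.358% and 0.539% of the main copies and copies together in RNAi pupae, 0.0896% and 0.122% in WT pupae and 0.0739% and 0.0861% in WT larvae. RpS19b supplied most of the sum in RNAi pupae.

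The main copies did not show the order of groups seen for RpS19b and RpS10a. RpS19a stood at 1858 and 1701 FPKM in RNAi pupae, 2070 and 1860 FPKM in WT pupae and 2845 and 3169 FPKM in WT larvae, and its difference between RNAi and WT pupae was -0.14 (SE 0.11, limma adjusted p = 0.356). RpS10b stood at 1366 and 1241 FPKM in RNAi pupae, 1651 and 1533 FPKM in WT pupae and 1948 and 2135 FPKM in WT larvae, with a difference of -0.29 (SE 0.10, limma adjusted p = 0.0674). RpS5a, at 1679 and 1555 FPKM in RNAi pupae against 1989 and 1833 FPKM in WT pupae, differed by -0.24 (SE 0.09, limma adjusted p = 0.0955).

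Between RNAi and WT pupae, 0 of the 7 main copies passed the limma threshold (adjusted p of 0.05) as higher and 1 as lower, beside 19.6% and 8.64% of all 6992 genes. The 1 that fell was RpS28b, at 1956 and 1662 FPKM in RNAi pupae against 2710 and 2361 FPKM in WT pupae (log2 change -0.49, SE 0.12, limma adjusted p = 0.0216). All 7 differences were negative, with a median of -0.29 beside 0.05 for all genes, and the median was negative under every scaling tried, at -0.13 with quantile normalization, -0.36 with median centring and -0.44 with the length trend removed. The call of RpS28b was lost without RNAi replicate 2 or without WT pupal replicate 1, when 0 main copies passed, whereas 5 passed as lower with median centring.

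Between WT pupae and WT larvae, 0 main copies rose and 5 fell, beside 22.7% and 26.5% of all genes. RpL10Ab fell most, to 2013 and 1969 FPKM in WT pupae, against 3334 and 3724 FPKM in WT larvae (log2 change -0.82, SE 0.10, limma adjusted p = 0.00174). RpS19a changed by -0.61 (SE 0.11, limma adjusted p = 0.00424), RpS5a by -0.46 (SE 0.09, limma adjusted p = 0.00713), RpS10b by -0.36 (SE 0.10, limma adjusted p = 0.0216) and RpL37a by -0.36 (SE 0.11, limma adjusted p = 0.0340). The count depends on scaling and on single libraries: with quantile normalization 2 main copies were lower and 1 higher, with the length trend removed 1 of the 6 with a length was lower, and it was 2 without WT pupal replicate 2 and 3 without larval replicate 2.

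Between RNAi pupae and WT larvae, 0 main copies rose and 7 fell, beside 27.8% and 19.5% of all genes, with a median of -0.70, which was -0.10 with quantile normalization. In that comparison RpS5b and its main copy RpS5a were both lower in RNAi pupae, by -1.53 and -0.70 on the log2 scale of FPKM + 1, while RpS19b and RpS10a were higher and their main copies lower.

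**Figure D3:**
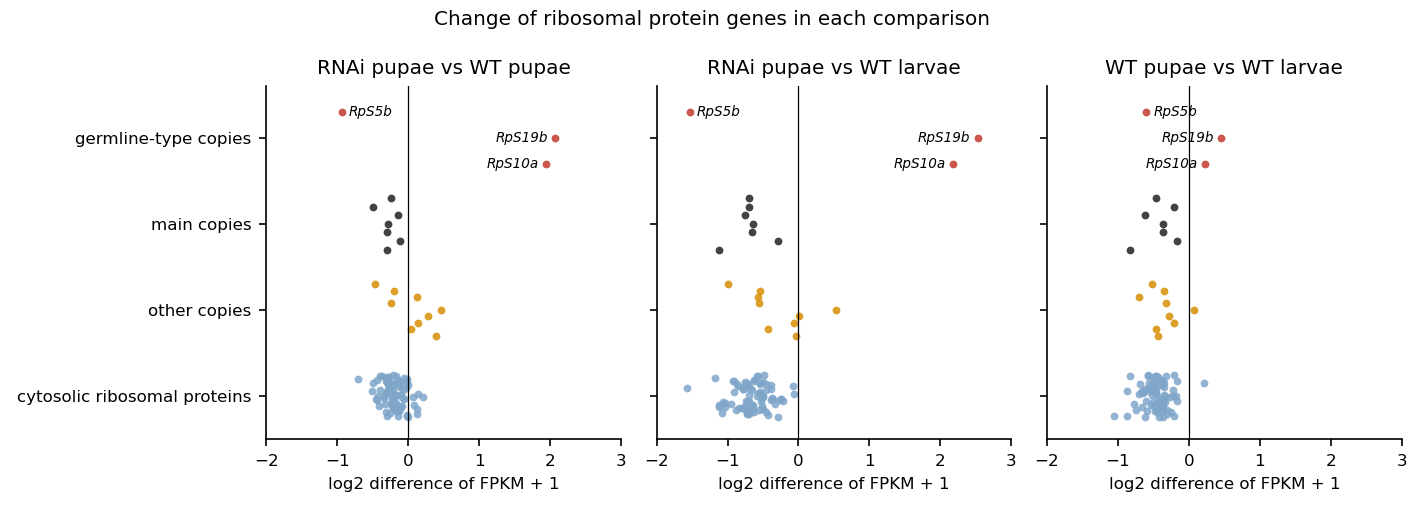
Difference in log2(FPKM + 1) in each of the 3 comparisons for the 3 fitted germline-type copies (red), the 7 main copies (black), 9 other ribosomal protein copies (orange) and the 80 main cytosolic ribosomal protein genes (blue, which include the main copies and 4 of the other copies); each point is 1 gene, spread up and down only for legibility. Between RNAi and WT pupae RpS19b (2.07) and RpS10a (1.94) lie to the right of all other ribosomal protein genes drawn and RpS5b (-0.93) to the left of them.

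Set among ribosomal protein genes at large, the 3 copies stood outside the range of the rest between RNAi and WT pupae. Their other comparisons differed in this: RpS5b, at -0.60 between WT pupae and WT larvae and -1.53 between RNAi pupae and WT larvae, lay within the range, since RpL39, a small protein of the large subunit, stood at -1.06 and -1.57 there. Of the 80 main cytosolic ribosomal protein genes, 0 rose and 11 fell between RNAi and WT pupae, with differences between -0.71 and 0.21 and a median of -0.20, and 4 passed as higher with quantile normalization. Of all genes 19.6% rose and 8.64% fell there, and 22.7% rose and 26.5% fell between WT pupae and WT larvae. The count of 11 was 1 without RNAi replicate 2 or without WT pupal replicate 1, 2 without WT pupal replicate 2, 6 without RNAi replicate 1 and 7 without larval replicate 1, and 62 with the length trend removed. Between WT pupae and WT larvae 0 rose and 64 fell, with a median of -0.44; the count of those that fell was 21 without WT pupal replicate 2 and 27 without larval replicate 2, while quantile normalization gave 17 lower and 7 higher and the removed length trend 12 lower and 5 higher.

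Other duplicated or ribosomal-protein-like genes moved little by comparison. Of 10 such genes 9 were fitted. Between RNAi and WT pupae 2 rose and 1 fell, a share near the 19.6% and 8.64% of all genes. RpLP0-like, a relative of the stalk protein that is known from ribosome assembly, rose to 193 and 201 FPKM in RNAi pupae, against 154 and 132 FPKM in WT pupae (log2 change 0.46, SE 0.09, limma adjusted p = 0.0104). RpL24-like, a factor of large subunit assembly, rose to 248 and 236 FPKM, against 197 and 172 FPKM in WT pupae (log2 change 0.39, SE 0.09, limma adjusted p = 0.0206). RpS15Ab, the lesser copy of the RpS15A pair, fell to 170 and 140 FPKM, against 225 and 203 FPKM in WT pupae (log2 change -0.47, SE 0.12, limma adjusted p = 0.0246). None of these 3 calls held without RNAi replicate 2 or without WT pupal replicate 2. Both genes of the RpS14 pair and of the RpL34 pair, which are all highly expressed, did not pass, with differences from -0.23 to 0.14.

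Between the WT stages 0 of these 9 rose and 5 fell, beside 22.7% and 26.5% of all genes. Fewer of the 9 fell without WT pupal replicate 2. The authors' deposited tables, made from the same libraries, listed 1597 genes for RNAi against WT pupae, 813 higher and 784 lower. RpS19b is there with base means of 1268 in RNAi pupae and 282 in WT pupae, a ratio of 4.497 in the authors' deposited table. RpS10a is in the authors' deposited table with base means of 291 in RNAi pupae and 53.2 in WT pupae, a ratio of 5.48. RpS5b is not among the genes of that table, and of the main copies the authors' deposited table holds RpS28b and RpL10Ab, both lower in RNAi pupae (log2 of RNAi over WT -0.52 and -0.36, with the sign turned from that of the table). None of the 7 copies is among the 1958 genes of the authors' deposited table for WT pupae against WT larvae. Both deposited tables are labelled as cut at a false discovery rate stricter than the limma threshold used here. Absence of a gene from them therefore does not show that its level was unchanged.

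The genes next to the copies were read beside them. Of the 39 nearest listed neighbours of the 7 copies, 16 were fitted, and between RNAi and WT pupae 3 rose and 0 fell, with a median difference of 0.11. Over all genes 19.6% rose, so a count of 3 in 16 is near the background when the neighbours of the 7 copies are pooled. The 3 that rose are neighbours of RpS19b: Pros26.4, a proteasome subunit, at 0.31 (limma adjusted p = 0.0265), CG31142 at 0.67 (limma adjusted p = 0.00725) and Gdh, glutamate dehydrogenase, at 0.87 (limma adjusted p = 0.0324), each smaller than RpS19b itself at 2.07. The closest neighbours on its 2 sides, CG13599 (0.05, SE 0.08, limma adjusted p = 0.712) and CG5854 (0.05, SE 0.14, limma adjusted p = 0.828), did not pass. They were the only other fitted neighbours of RpS19b, so the pooled count does not describe that locus.

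RpS10a lies within tau, the gene of a microtubule-binding protein, on the opposite strand. The level of tau was 1.78 and 1.396 FPKM in RNAi pupae, 1.32 and 2.68 FPKM in WT pupae and 0.233 and 0.635 FPKM in WT larvae, and it did not pass between RNAi and WT pupae (-0.18, limma adjusted p = 0.679). The libraries keep the strand, but the sources used here do not say whether counting used it.

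Genes whose levels followed the same pattern over the 6 replicates were named by their Pearson r on the scale of log2(FPKM + 1). For RpS19b these were CG10353 (r = 0.999), Paf-AHalpha, which encodes a subunit of a platelet-activating factor acetylhydrolase (r = 0.997), and CG7200 (r = 0.996), and 189 of 6991 genes had an r above 0.95. For RpS10a they were CG5027 (r = 0.996), CG12263 (r = 0.994) and bsf, an RNA-binding protein of mitochondria (r = 0.994), with 160 genes above 0.95. The 6 points are 2 replicates of 3 groups, so r mainly reflects the group means. The differences of these genes between RNAi and WT pupae were smaller than those of the copies, from 0.28 for bsf to 0.61 for CG7200.

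Because the copies are known from the germline, 26 genes of germ cells and of the piRNA pathway, which silences transposons in gonads, were read beside them. Between RNAi and WT pupae 5 of the 19 fitted rose and 1 fell, with a median of 0.45, beside 19.6% higher, 8.64% lower and a median of 0.05 over all genes. The count that rose was thus little above the share of all genes. The 5 that rose are piRNA pathway genes: del and cuff, partners in transcription of dual-strand piRNA clusters, and armi, zuc and squ, known from piRNA processing. Fitted genes of the list that did not pass ran both ways, among them aub (-0.50), mael (-0.52), tej (-0.34), rhi (-0.18), tud (0.05), spn-E (0.16), vret (0.16) and krimp (0.69). The count of 5 was 2 without RNAi replicate 2, 3 without WT pupal replicate 2 and 8 without RNAi replicate 1.

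Among them del stood apart. It was at 15.04 and 21.8 FPKM in RNAi pupae, 3.17 and 2.04 FPKM in WT pupae and 3.33 and 1.94 FPKM in WT larvae (RNAi against WT pupae 2.43, SE 0.26, limma adjusted p = 0.00149), a pattern of groups like that of RpS19b and RpS10a. A smaller change was seen for squ, at 41.1 and 42.6 FPKM in RNAi pupae and 19.5 and 19.8 FPKM in WT pupae (1.05, SE 0.10, limma adjusted p = 0.000984). For rhi, the third partner of del and cuff, the levels were 1.41 and 1.74 FPKM in RNAi pupae and 2.43 and 1.48 FPKM in WT pupae, and it did not pass (-0.18, limma adjusted p = 0.538). The gene that fell was CG8920, a Tudor domain gene, at 2.87 and 2.40 FPKM in RNAi pupae against 10.3 and 9.52 FPKM in WT pupae (-1.59, SE 0.13, limma adjusted p = 0.000863).

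Both RNAi replicates lay above all 4 WT replicates for 10 of the 26 genes, beside 15.9% of all listed genes: del, cuff, armi, squ, bam, orb, AGO3, qin, nos and pgc. Of these, 4 had a mean under 1 FPKM and were not fitted. AGO3, a piRNA-binding Argonaute protein, stood at 1.08 and 1.29 FPKM in RNAi pupae, against 0.284 and 0.240 FPKM in WT pupae, and qin, a piRNA pathway gene, at 1.03 and 2.79 FPKM in RNAi pupae, against 0.303 and 0.224 FPKM in WT pupae.

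The defining germ cell genes differed in level: osk, nos and pgc were at 0 or low, whereas vas reached 15.5 FPKM. In all 6 replicates osk was at 0. For nos, a translational repressor of germ cells, the levels were 0.213 and 0.307 FPKM in RNAi pupae and 0.0609 and 0.0255 FPKM in WT pupae, and pgc, which silences transcription in early germ cells, stood at 0.0863 and 0.111 FPKM in RNAi pupae and 0.0613 and 0 FPKM in WT pupae. For vas, the germ cell RNA helicase, the levels were 7.10 and 15.5 FPKM in RNAi pupae, 7.65 and 5.40 FPKM in WT pupae and 9.21 and 11.5 FPKM in WT larvae (RNAi against WT pupae 0.64, limma adjusted p = 0.177).

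RNAi replicate 2 stood apart from replicate 1 in several germ cell genes. For bam, a differentiation factor of germline stem cell daughters, the levels were 3.68 and 14.4 FPKM in RNAi pupae and 2.46 and 1.78 FPKM in WT pupae (1.45, limma adjusted p = 0.0595). For zpg, a germ cell gap junction protein, they were 1.15 and 9.19 FPKM in RNAi pupae and 0.696 and 0.933 FPKM in WT pupae (1.37, limma adjusted p = 0.137). In the same replicate RpS19b was also the higher of the pair (46.8 against 30.9 FPKM), whereas RpS10a was not (8.68 against 9.003 FPKM). The summed level of the 26 genes was 259 and 326 FPKM in RNAi pupae, 213 and 211 FPKM in WT pupae and 236 and 228 FPKM in WT larvae, and its part in the levels of the copies was not tested.

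**Figure D4:**
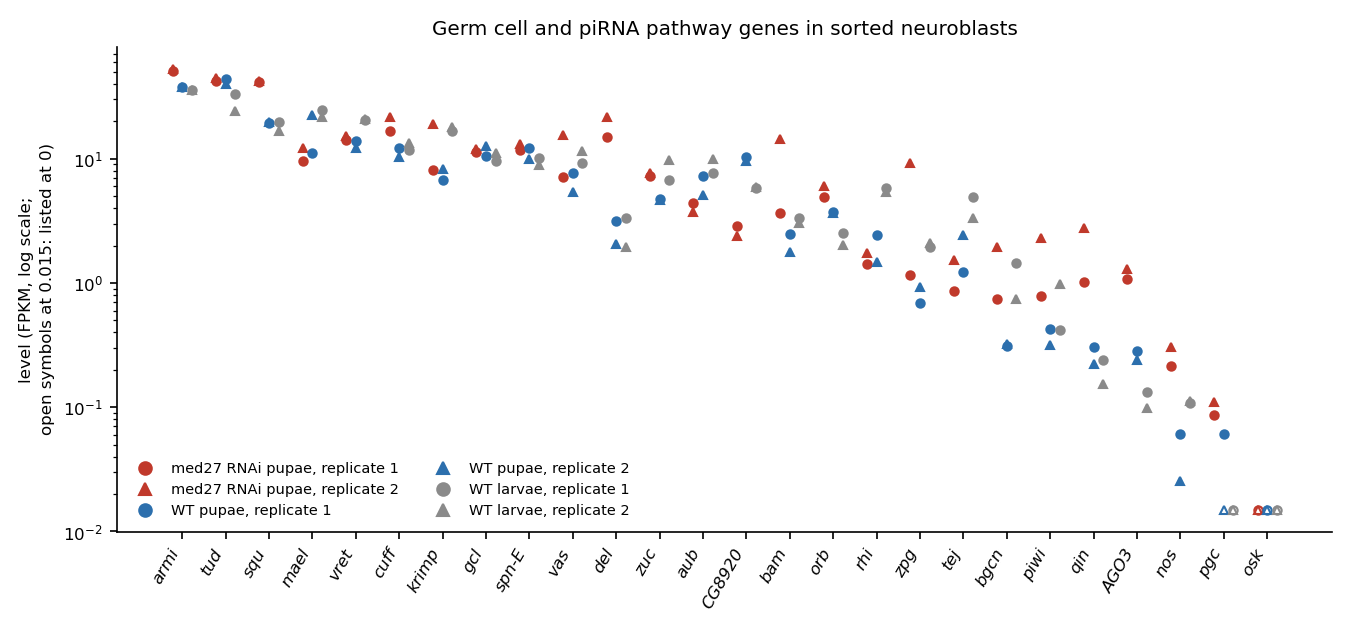
Level in FPKM (log axis) of the 26 germ cell and piRNA pathway genes, ordered by mean, in med27 RNAi pupae (red), WT pupae (blue) and WT larvae (grey); circles are replicate 1 and triangles replicate 2, and open symbols mark values listed at 0. Both RNAi replicates are highest for del and squ, bam and zpg are far higher in RNAi replicate 2 than in RNAi replicate 1, and osk is at 0 in all.

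Genes of spermatocytes and spermatids, where RpL22-like is also known, were mostly silent. Of 24 matched genes, 9 were fitted, and between RNAi and WT pupae 1 rose and 2 fell, beside 19.6% and 8.64% of all genes. The 1 that rose was lost without RNAi replicate 2 or without WT pupal replicate 2, and 1 in place of 2 fell without RNAi replicate 1 or without WT pupal replicate 1. The meiotic arrest gene tomb fell to 0.501 and 0.428 FPKM in RNAi pupae, against 4.14 and 3.31 FPKM in WT pupae (-1.69, SE 0.21, limma adjusted p = 0.00231), and twe, a meiotic phosphatase of the Cdc25 family, changed by -0.57 (limma adjusted p = 0.0422). For janB, a testis gene, the change was 1.09 (SE 0.28, limma adjusted p = 0.0256). The spermatid genes djl, Mst84Da, Mst98Ca and Mst98Cb were at 0 in all replicates, dj reached at most 0.0929 FPKM and Mst87F at most 0.0887 FPKM. The summed level of the list was 36.0 and 44.2 FPKM in RNAi pupae, 50.5 and 47.5 FPKM in WT pupae and 53.7 and 50.5 FPKM in WT larvae, lower in both RNAi replicates than in every WT replicate.

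Between WT pupae and WT larvae, 3 germline genes rose and 5 fell of the 19, beside 22.7% and 26.5% of all genes. The one that fell most was rhi, to 2.43 and 1.48 FPKM in WT pupae, against 5.83 and 5.43 FPKM in WT larvae (-1.19, SE 0.20, limma adjusted p = 0.00396). The count of those that rose was 1 without WT pupal replicate 1 or without larval replicate 2, and that of those that fell was 3 without either larval replicate. The others that fell were vret (-0.62, SE 0.10, limma adjusted p = 0.00364), zuc (-0.68, SE 0.16, limma adjusted p = 0.0133), krimp (-1.12) and tej (-0.88). RpS5b was also lower in WT pupae than in WT larvae in all replicates. The 3 germline genes that rose went the other way: tud (0.54), orb (0.52) and CG8920 (0.66). Between RNAi and WT pupae, where RpS5b was lower, zuc (0.57), vret (0.16) and krimp (0.69) were higher and tej (-0.34) and rhi (-0.18) lower. Only zuc passed there.

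A further pair of gene groups was read as well: the l(3)mbt and dREAM repressor complex, whose loss in larval brains is known to release germline genes, and factors of ribosomal protein gene promoters. Whether either group acts on the promoters of the copies was not tested. For l(3)mbt the levels were 21.3 and 22.5 FPKM in RNAi pupae and 21.4 and 23.4 FPKM in WT pupae, and it did not pass (-0.03, limma adjusted p = 0.829). Of 9 genes of the complex 2 rose and 1 fell, a share near the 19.6% and 8.64% of all genes. The genes that rose were mip40 (0.60, SE 0.08, limma adjusted p = 0.00343) and E2f2 (0.26, SE 0.08, limma adjusted p = 0.0413), and the one that fell was mip130 (-0.33, SE 0.10, limma adjusted p = 0.0405). Of 5 promoter factors 1 rose and 0 fell between RNAi and WT pupae, a share near the 19.6% and 8.64% of all genes. The one that rose was Trf2, a TBP relative that is used at ribosomal protein promoters, with 88.1 and 124 FPKM in RNAi pupae and 50.5 and 56.9 FPKM in WT pupae (0.95, SE 0.21, limma adjusted p = 0.01496). It was also higher in WT pupae than in WT larvae, which had 26.1 and 17.8 FPKM (1.27, SE 0.21, limma adjusted p = 0.00327).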

How the data were processed

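PolyA RNA of sorted neuroblasts was sequenced in 10 runs: 2 larval libraries and 2 technical runs of each of 4 pupal replicates, which were averaged as FPKM (r of run pairs 0.9988 to 0.9991), so n = 2 per group. Per the file headers, the authors deposited FPKM for each gene and run in Cufflinks tables, with bounds of confidence. Tools in the submitters' processing notes, with no role given, were DESeq 1.8.3, HTSeq, Cufflinks 1.3.0, TopHat 1.4.1 and BWA 0.6.1. The genome build was not given in the sources used here, nor the annotation. The authors' deposited comparison tables hold base means (a signal, counts over size factors), their ratio or fold, its log2 and p-values, per the file headers.

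Fragments behind an FPKM were derived from its upper bound; 91.5 to 93.7% of values under 50 fragments came out within 0.02 of a whole number. No count test was run, since FPKM are not counts. The test was limma 3.58.1 (R 4.3.3) on log2(FPKM + 1), with a pseudocount of 1 (empirical Bayes, intensity trend, two-sided), with the 3 groups in 1 fit, on the 6992 of 14210 genes with a mean of at least 1 FPKM, Benjamini-Hochberg adjusted, threshold 0.05. This scale understates the change of low genes. The script was tested on simulated data. Python 3.11.15, pandas 2.3.3, numpy 2.4.6, scipy 1.17.1 and matplotlib 3.10.9 were used otherwise.

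The 7 genes and the 13 lists were chosen with earlier results of these data known. Named were all copies, main copies and other ribosomal protein copies, MED27, up to 4 called genes of a list in order of p, germline and testis genes with a mean of at least 1 FPKM, the highest cell type markers and the 3 genes most like RpS19b and RpS10a; repo, l(3)mbt, the neighbours and the germline and testis genes near 0 were added after their values were seen. List names not matched were RpSA, rye and lint-1. Alternatives were another pseudocount, filters, scalings, a replicate block, single technical runs and each replicate left out.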

Additional observations from a re-analysis of the deposited data

How the results depend on the processing

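RpS19b and RpS10a were higher, and RpS5b lower, in RNAi than in WT pupae under every alternative run. On the log2 scale of FPKM + 1, leaving out 1 replicate in turn gave 1.78 to 2.36 for RpS19b, 1.73 to 2.15 for RpS10a and -0.98 to -0.88 for RpS5b. A pseudocount of 0.1 gave 2.44 for RpS10a and -1.29 for RpS5b against WT pupae, and 2.82 and -2.003 against WT larvae. Median centring gave -1.004 for RpS5b between RNAi and WT pupae. With the trend over transcript length removed, values were 1.69 for RpS10a and -1.11 for RpS5b between RNAi and WT pupae, 2.42 for RpS10a between RNAi pupae and WT larvae, and 0.92 for RpS19b, 0.73 for RpS10a and -0.28 for RpS5b between WT pupae and WT larvae; quantile normalization gave -0.11 for RpS10a there.

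Counts moved more. Between RNAi and WT pupae the genes that rose numbered 1373, and 879 with quantile normalization; 604 fell, and 328 without a filter on low values. Rising genes were 69.4% of those calls, 52.9% with quantile normalization, 57.4% with median centring and 59.6% with the length trend removed; between RNAi pupae and WT larvae they were 58.8%, and 46.0% with median centring. In WT pupae against WT larvae 1590 rose, and 920 with the length trend removed. Main copies lower between RNAi and WT pupae numbered 1, against 0 without the filter, 2 with quantile normalization, 5 with median centring and 6 with the length trend removed. Cytosolic ribosomal protein genes lower there numbered 11, against 1 without the filter, 25 with median centring, 62 with the length trend removed and 6 without the intensity trend, and 4 were higher with quantile normalization. In WT pupae against WT larvae, main copies lower numbered 5, against 3 without the filter, 2 with quantile normalization, which made 1 higher, and 1 with the length trend removed; cytosolic genes lower numbered 64, against 23 without the filter, 17 with quantile normalization and 12 with the length trend removed, which made 7 and 5 higher in turn. Between RNAi pupae and WT larvae quantile normalization left 3 main copies and 30 cytosolic genes lower and 12 higher.

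Single genes changed sign under a scaling. Between WT pupae and WT larvae, quantile normalization gave 0.24 for RpS28b, 0.083 for RpL37a and 0.047 for RpS15Aa, and the removed length trend 0.059 for RpS15Aa, 0.031 for RpL34a and 0.24 for RpL34b. Between RNAi pupae and WT larvae, quantile normalization gave 0.012 for RpL37a and 0.023 for RpS15Aa. The cause was not tested. The log2 slope per doubling of length was 0.0024 and 0.042 in RNAi pupae, 0.091 and 0.19 in WT pupae and -0.12 and -0.20 in WT larvae.

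Leaving out 1 replicate in turn, between RNAi and WT pupae 533 to 1580 genes rose and 195 to 678 fell, with 0 to 1 main copies and 1 to 9 cytosolic genes lower; 646, 533 and 686 rose and 292, 195 and 282 fell without RNAi replicate 1, RNAi replicate 2 and WT pupal replicate 2. Between WT pupae and WT larvae 984 to 1489 rose and 933 to 1980 fell, with 2 to 5 main copies and 21 to 64 cytosolic genes lower and 0 to 1 cytosolic genes higher; the lowest counts of genes came without WT pupal replicate 2. Between RNAi pupae and WT larvae 970 to 1931 rose and 644 to 1453 fell. A lone replicate was assumed to vary like the other groups.

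The labels number the replicates 1 and 2 in each group. Deviations of same-numbered replicates correlated at -0.06, -0.03 and -0.10. Whether same-numbered replicates were handled together was not tested. A replicate block gave 1105 genes higher and 432 lower between RNAi and WT pupae, with 3 cytosolic genes lower. An added fit, chosen after seeing the data, with the larval numbers crossed gave 1557 higher and 753 lower, with 5 main copies and 40 cytosolic genes lower and 1 higher. Depth limits RpS28a, RpL22-like, RpL37b and RpL10Aa, with at most 23.6 fragments in a replicate.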
